A study of Arabidopsis thaliana with 4 samples.

Results

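Aux/IAA repressors and GH3 enzymes are the families through which auxin transcription most directly feeds back on itself. The 36 genes described here are the 29 Aux/IAA genes of Arabidopsis thaliana (IAA1 to IAA20 and IAA26 to IAA34) and 7 GH3 genes for auxin-conjugating enzymes (GH3.1 to GH3.6 and GH3.17). They were taken by locus identifier from a table of 27322 gene models, and all 36 were in it. Their mRNA was measured in inflorescence shoot apices of mp clv3 plants (mp319 clv3-7 in the growth protocol, mutant for both MONOPTEROS and CLAVATA3) and of the wild type Col-0 (WT). Plants of both genotypes were 6 weeks old, were grown at 22 °C under 16 h of light and 8 h of dark, and had their older flowers removed before the apices were taken. The labels give 2 biological replicates of each genotype, but the table has 1 column of reads and 1 of RPKM (reads scaled to model length and column total) per genotype. The labels do not say if that column pools the replicates or comes from 1 of them, so no difference has a replicate check. Neither single mutant was analysed here, so the effects of the mp and clv3 lesions cannot be told apart.

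Aux/IAA proteins bind auxin response factors (ARFs) and recruit TOPLESS-type co-repressors to auxin-responsive genes. Auxin glues the degron of an Aux/IAA protein, a short conserved stretch with the residues glycine, tryptophan, proline and proline at its core, to the F-box receptors TIR1 and AFB, and the protein is then destroyed and the ARF released. Many Aux/IAA genes and several GH3 genes are themselves ARF targets, and the GH3 enzymes join free auxin to amino acids, which removes it from the active pool. MP (ARF5) is the activating ARF best known for organ initiation at the shoot apex, and CLV3 is the peptide that limits the stem cell population there.

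The codons of the degron core, any 4 in frame that read glycine, tryptophan, proline and proline in a row, were searched in the coding sequences of the RefSeq annotation of TAIR10.1. A match was found in 23 of the 29 Aux/IAA genes, and no match in IAA20, IAA30, IAA31, IAA32, IAA33 and IAA34. The segments of 9 members are printed, and no ratio or call below depends on them. They come from members of the same subgroups whose transcripts differed in opposite ways or to different extents. The capitals mark the 4 codons of the core, with 12 bases on either side.
IAA18 (chr1:19306228-19306263, plus strand): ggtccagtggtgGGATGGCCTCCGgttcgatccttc
IAA26 (chr3:5613659-5613694, minus strand): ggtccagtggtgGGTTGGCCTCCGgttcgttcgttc
IAA28 (chr5:9033809-9033844, plus strand): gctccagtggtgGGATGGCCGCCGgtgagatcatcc
IAA2 (chr3:8181384-8181419, minus strand): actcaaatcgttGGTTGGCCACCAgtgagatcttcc
IAA1 (chr4:8361433-8361468, plus strand): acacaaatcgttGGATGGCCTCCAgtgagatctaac
IAA3 (chr1:1129016-1129051, minus strand): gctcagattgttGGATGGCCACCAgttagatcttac
IAA4 (chr5:17550737-17550772, plus strand): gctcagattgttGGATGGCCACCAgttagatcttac
IAA14 (chr4:8349475-8349510, minus strand): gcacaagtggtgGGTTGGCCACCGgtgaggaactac
IAA16 (chr3:1289727-1289762, minus strand): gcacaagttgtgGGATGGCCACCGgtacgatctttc
These 9 genes hold the same core, and among them are genes called higher, called lower and neither. The segments of IAA3 and IAA4 were identical over all 36 bases, although these genes differed in their transcript ratios.

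The upstream sequences of 3 members are printed next, because they show where the letters of the auxin response element stood. Each runs over the 300 bases before the annotated gene start, 5′ to 3′ on the gene's own strand, read from TAIR10.1, and capitals mark the element TGTCTC.
IAA20 (chr2:19307414-19307713, plus strand): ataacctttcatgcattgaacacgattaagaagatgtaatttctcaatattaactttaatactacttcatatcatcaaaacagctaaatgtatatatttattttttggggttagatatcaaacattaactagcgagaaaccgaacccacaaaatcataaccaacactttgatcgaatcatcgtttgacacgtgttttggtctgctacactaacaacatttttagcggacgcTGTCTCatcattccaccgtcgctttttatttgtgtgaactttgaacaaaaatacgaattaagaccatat
GH3.3 (chr2:9866563-9866862, minus strand): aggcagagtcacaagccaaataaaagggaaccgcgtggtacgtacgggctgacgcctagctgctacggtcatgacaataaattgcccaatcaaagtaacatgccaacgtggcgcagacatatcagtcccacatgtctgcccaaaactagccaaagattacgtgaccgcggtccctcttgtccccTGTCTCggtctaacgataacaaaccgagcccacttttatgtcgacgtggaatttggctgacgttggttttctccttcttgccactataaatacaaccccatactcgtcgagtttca
GH3.6 (chr5:22133689-22133988, minus strand): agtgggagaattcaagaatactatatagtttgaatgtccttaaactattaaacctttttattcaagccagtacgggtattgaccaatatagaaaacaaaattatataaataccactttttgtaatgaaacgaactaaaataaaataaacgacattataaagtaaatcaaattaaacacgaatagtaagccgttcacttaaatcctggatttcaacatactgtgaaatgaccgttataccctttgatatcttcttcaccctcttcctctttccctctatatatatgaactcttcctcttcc
IAA20 held 1 match, at position -69, where -1 is the base before the gene start and the first base of the match is counted. GH3.3 held 1 match, at -116, and GH3.6 held no match on either strand.

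Column totals were 103347441 reads for mp clv3 and 101878433 for WT. Ratios were taken from reads divided by these totals, and each interval in parentheses is an exact 95% interval on read pairs that covers counting error only. A gene was called at least 2-fold higher or lower in mp clv3 when the FDR (adjusted p-value) of the authors' deposited table was under 0.05 and the ratio reached 2-fold. Over all models, 9.50% were called higher and 19.7% lower by this rule. The median log2 ratio was -0.15 over the 23060 models with more than 6 reads in either genotype. CLV3 had 1278 reads in mp clv3 against 2 in WT, and MP was at 14.5 RPKM in mp clv3 against 46.1 RPKM in WT. Markers of other tissues also differed between the columns. Of the 9 floral organ genes in the table, 8 were called lower and 1, SHP1, was not, and their summed level was 12.04 RPKM in mp clv3 against 557 RPKM in WT, with STK at 0 reads in mp clv3. The 7 anther tapetum genes were all called lower, at a sum of 0.494 RPKM in mp clv3 against 390 RPKM in WT, with MS2 and ATA1 at 0 reads in mp clv3. Of 8 vascular genes, 6 were called lower (sum 48.1 RPKM in mp clv3 against 145 RPKM in WT). The 5 shoot apex genes were STM, WUS, CLV3, CLV1 and LFY, and CLV3 is itself mutated in mp clv3. All but LFY, thus 4, were called higher (sum of the 5, 323 RPKM in mp clv3 against 104 RPKM in WT). In whole apices, fewer cells of a type and less RNA per cell cannot be told apart, and the part of this shift in the results below was not tested.

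Aux/IAA genes differed in both directions. Of the 29, 6 were called at least 2-fold higher in mp clv3 (IAA2, IAA15, IAA18, IAA26, IAA30 and IAA31), 8 lower (IAA1, IAA3, IAA5, IAA6, IAA14, IAA17, IAA20 and IAA32) and 15 neither, beside 9.50% and 19.7% of all models. The median log2 ratio of the 28 members above the floor of 6 reads was -0.24, and single values ran from -3.47 to 2.56. All 8 members called lower stood below 10 RPKM in both genotypes, as did IAA15 and IAA31 among the 6 called higher. In the same columns the 5 apex marker genes, the mutated gene CLV3 among them, summed to a ratio of 3.099. The floral and tapetum markers were nearly all lower, and the part of these markers' tissues in these counts was not tested. By the FDR alone, which in the authors' deposited table called 31.3% of all models higher and 43.5% lower, 12 Aux/IAA genes were higher, 14 lower and 3 (IAA28, IAA29 and IAA33) neither.

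**Figure D1:**
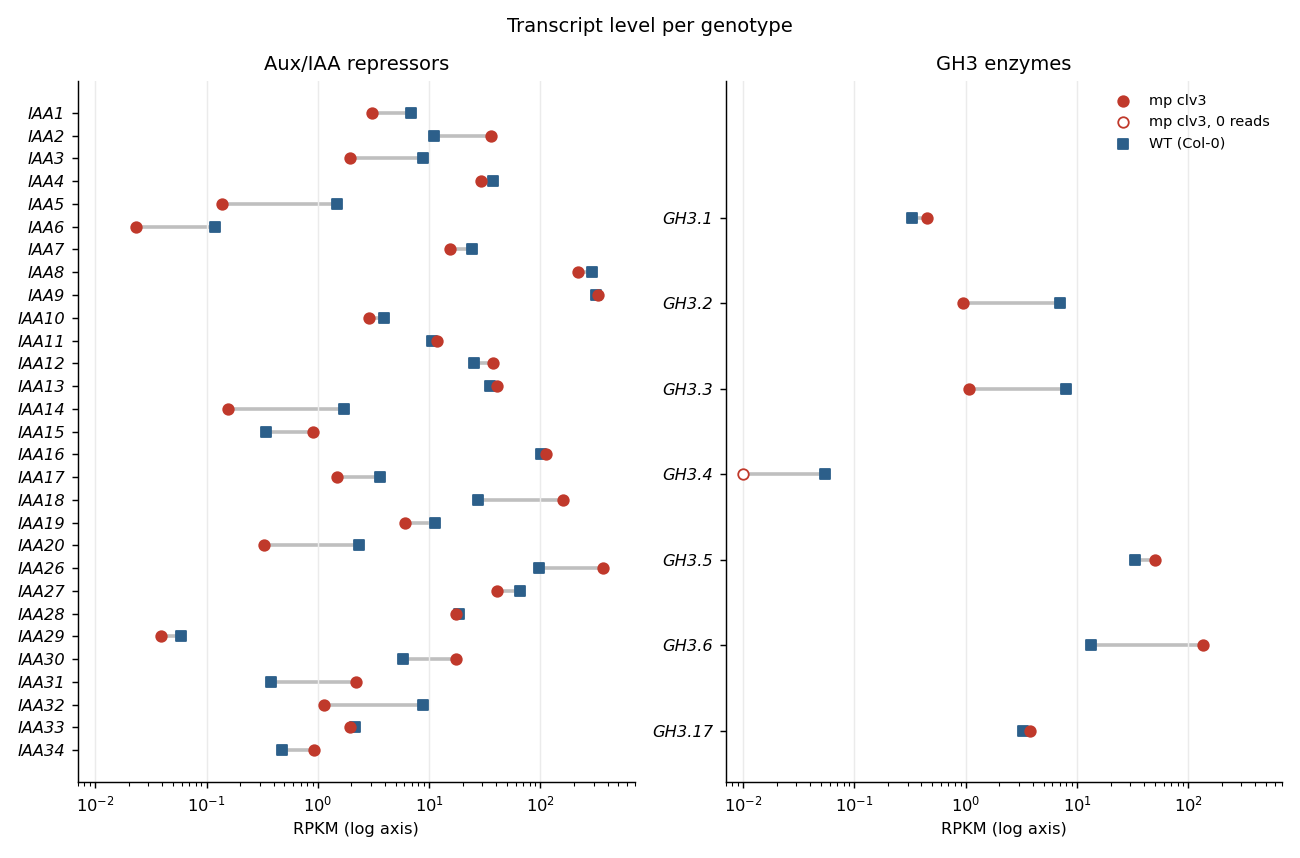
Transcript level of each Aux/IAA gene (left) and GH3 gene (right) in RPKM on a log axis, with mp clv3 as red circles and WT as blue squares (1 value per genotype, no error bar available). IAA26 and IAA18 stand far to the right of their WT values at a high level, whereas the members called lower, and IAA15 and IAA31 among those called higher, lie under 10 RPKM, and the open circle of GH3.4 marks 0 reads, drawn at the left edge.

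The abundant members were examined first, and the subgroup of IAA18 (AT1G51950), IAA26 (AT3G16500) and IAA28 (AT5G25890) held the most abundant of the members called higher. IAA26 (PAP1 in RefSeq, named for binding phytochrome) had 49000 reads in mp clv3 against 12869 in WT, which is 361 RPKM in mp clv3 against 96.2 RPKM in WT. Its ratio was 3.75 (3.65 to 3.86). IAA18, known from stabilised alleles that disturb embryo patterning and lateral root formation, had 25528 reads in mp clv3 against 4305 in WT, or 160 RPKM in mp clv3 against 27.5 RPKM in WT. Its ratio was 5.85 (5.58 to 6.12). IAA26 lies on chromosome 3 from 5612203 to 5614803 on the minus strand and IAA18 on chromosome 1 from 19305081 to 19307518 on the plus strand, each with up to 5 annotated exons. Among the 29, IAA26 and IAA18 were the members that were both called higher and above 100 RPKM in mp clv3. IAA28, placed in the same subgroup and known for restraining lateral root initiation, did not follow them. It had 1576 reads in mp clv3 against 1657 in WT, or 17.5 RPKM in mp clv3 against 18.6 RPKM in WT, a ratio of 0.938 (0.849 to 1.03), with an FDR of 0.0765 in the authors' deposited table.

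IAA8 (AT2G22670), IAA9 (AT5G65670) and IAA27 (AT4G29080), a subgroup with long N-terminal regions, were among the most abundant transcripts of the family and none was called 2-fold. IAA9 had 55550 reads in mp clv3 against 51734 in WT, or 331 RPKM in mp clv3 against 313 RPKM in WT, a ratio of 1.06 (1.04 to 1.08). IAA8 was 1.33-fold lower in mp clv3 (1.30 to 1.35), at 32002 reads and 218 RPKM in mp clv3 and 41815 reads and 289 RPKM in WT. IAA27 (PAP2 in RefSeq) was 1.61-fold lower (1.53 to 1.69), at 5587 reads and 40.4 RPKM in mp clv3 and 8865 reads and 65.1 RPKM in WT. Thus 1 of these 3 was slightly higher and 2 were lower, all within 2-fold.

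IAA12 (AT1G04550; BODENLOS), the repressor best known as the partner of MP in the embryo, was modestly higher. It had 5334 reads in mp clv3 against 3571 in WT, or 37.1 RPKM in mp clv3 against 25.2 RPKM in WT, a ratio of 1.47 (1.39 to 1.56). Its relative IAA13 (AT2G33310) was at 40.5 RPKM in mp clv3 (5689 reads) against 35.2 RPKM in WT (4868 reads), a ratio of 1.15 (1.09 to 1.22). The annotated exons of IAA13 share 31.0% of their 100-base stretches with AT2G33300 on the opposite strand, which had 4 reads in mp clv3 against 2 in WT. IAA11 (AT4G28640) had 1334 reads in mp clv3 against 1205 in WT (11.6 RPKM in mp clv3, 10.7 RPKM in WT), a ratio of 1.09 whose interval of 0.975 to 1.22 spans no difference. IAA10 (AT1G04100) was 1.37-fold lower (1.13 to 1.67) at 374 reads in mp clv3 against 506 in WT, with 19.6% of its stretches shared with the antisense gene AT1G04105.

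The subgroup of IAA7 (AT3G23050), IAA14 (AT4G14550), IAA16 (AT3G04730) and IAA17 (AT1G04250) holds genes best known from dominant mutants of root and shoot growth (IAA7 is AXR2, IAA14 is SOLITARY-ROOT and IAA17 is AXR3). IAA16 carried most of its reads and was nearly level, with 14780 reads and 112 RPKM in mp clv3 and 13306 reads and 102 RPKM in WT (ratio 1.09, 1.06 to 1.13). IAA7 was 1.58-fold lower (1.46 to 1.71), at 1999 reads and 15.4 RPKM in mp clv3 and 3108 reads and 24.3 RPKM in WT. IAA17 had 168 reads in mp clv3 against 401 in WT, or 1.495 RPKM in mp clv3 against 3.62 RPKM in WT, a ratio of 0.413 (0.315 to 0.534). IAA14 had 24 reads in mp clv3 against 262 in WT, or 0.157 RPKM in mp clv3 against 1.74 RPKM in WT, 11.1-fold lower (6.13 to 22.0). The transcript of IAA14 was thus under 2 RPKM in both genotypes.

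IAA1 (AT4G14560), IAA2 (AT3G23030), IAA3 (AT1G04240) and IAA4 (AT5G43700) are short, rapidly auxin-induced genes. IAA2, widely used as an auxin response marker, had 3465 reads in mp clv3 against 1052 in WT, or 35.6 RPKM in mp clv3 against 10.97 RPKM in WT, a ratio of 3.25 (2.94 to 3.59). IAA1 stood the other way round, at 267 reads and 3.09 RPKM in mp clv3 and 583 reads and 6.84 RPKM in WT, 2.22-fold lower (1.80 to 2.73). IAA3 (SHY2), a repressor at the root's meristem boundary, had 236 reads in mp clv3 against 1047 in WT, or 1.94 RPKM in mp clv3 against 8.72 RPKM in WT, 4.50-fold lower (3.68 to 5.55). Of the 100-base stretches of IAA3, 31.2% are shared with the antisense gene AT1G04230, which had 2726 reads in mp clv3 against 1723 in WT, opposite in direction to IAA3. IAA4 was 1.29-fold lower (1.21 to 1.37), at 3515 reads and 29.1 RPKM in mp clv3 and 4464 reads and 37.5 RPKM in WT.

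In the subgroup of IAA5 (AT1G15580), IAA6 (AT1G52830), IAA15 (AT1G80390) and IAA19 (AT3G15540), all but IAA19 were scarce. IAA19 (MASSUGU2), which acts in bending growth of the hypocotyl, had 611 reads in mp clv3 against 1119 in WT, or 6.09 RPKM in mp clv3 against 11.3 RPKM in WT. It was 1.86-fold lower (1.61 to 2.14) and so short of the 2-fold rule. IAA5 had 9 reads in mp clv3 against 96 in WT, 10.8-fold lower (3.896 to 31.3), and its neighbour AT1G15570 on the opposite strand overlaps it by 48 bases. IAA6 had 2 reads in mp clv3 against 10 in WT, 5.07-fold lower with an interval of 0.568 to 239.9. The authors' deposited table gave IAA6 an FDR of 0.0183, but an exact binomial test of its read pairs, adjusted by Benjamini-Hochberg over all models, gave 0.285. IAA15 went the other way, with 50 reads in mp clv3 against 19 in WT (0.896 RPKM in mp clv3, 0.345 RPKM in WT), a ratio of 2.59 (1.14 to 5.75). These last 3 calls rest on fewer than 100 reads in either genotype.

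The 6 members without the degron codons had log2 ratios from -2.95 to 2.56. IAA20 (AT2G46990), IAA30 (AT3G62100) and IAA31 (AT3G17600) form a subgroup of these, and the search for exact codons does not exclude a partly conserved degron. IAA20 and IAA30 are known as MP targets in vascular tissue. IAA30 had 1328 reads in mp clv3 against 430 in WT, or 17.6 RPKM in mp clv3 against 5.77 RPKM in WT, a ratio of 3.04 (2.61 to 3.57). IAA31 had 191 reads in mp clv3 against 32 in WT, or 2.21 RPKM in mp clv3 against 0.376 RPKM in WT, a ratio of 5.88 (3.46 to 10.8). IAA20 had 22 reads in mp clv3 against 155 in WT, or 0.325 RPKM in mp clv3 against 2.32 RPKM in WT, a ratio of 0.140 (0.0667 to 0.263), or 7.15-fold lower. So this subgroup of 3 had 2 members higher and 1 lower. The 8 vascular marker genes, 6 of them called lower, had a median log2 ratio of -1.74 in the same columns, and their part in the IAA20 result was not tested.

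IAA32 (AT2G01200), IAA33 (AT5G57420) and IAA34 (AT1G15050) lack the degron codons as well, and little of their function is settled. IAA32 had 100 reads in mp clv3 against 763 in WT, or 1.13 RPKM in mp clv3 against 8.76 RPKM in WT, 7.74-fold lower (5.76 to 10.6). Of its 100-base stretches, 38.9% are shared with the antisense gene AT2G01210, which had 3609 reads in mp clv3 against 3153 in WT. IAA34 had 53 reads in mp clv3 against 27 in WT, a ratio of 1.94 (0.963 to 3.92). The gene overlaps AT1G15060 on the same strand by 156 bases. IAA33 had 111 reads in mp clv3 against 119 in WT, a ratio of 0.9195 (0.628 to 1.35). IAA29 (AT4G32280), known as a target of light-signalling PIF factors, was near the floor at 4 reads in mp clv3 against 6 in WT, and no ratio is given. Taking all 6 members without the codons, 2 were called higher, 2 lower and 2 neither, beside 9.50% higher and 19.7% lower over all models, and they summed to 24.1 RPKM in mp clv3 against 19.8 RPKM in WT. The 23 members with the codons had 4 called higher, 6 lower and 13 neither, and summed to 1427 RPKM in mp clv3 against 1094 RPKM in WT. Members with the codons thus held nearly the whole level of the family in both genotypes.

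**Figure D2:**
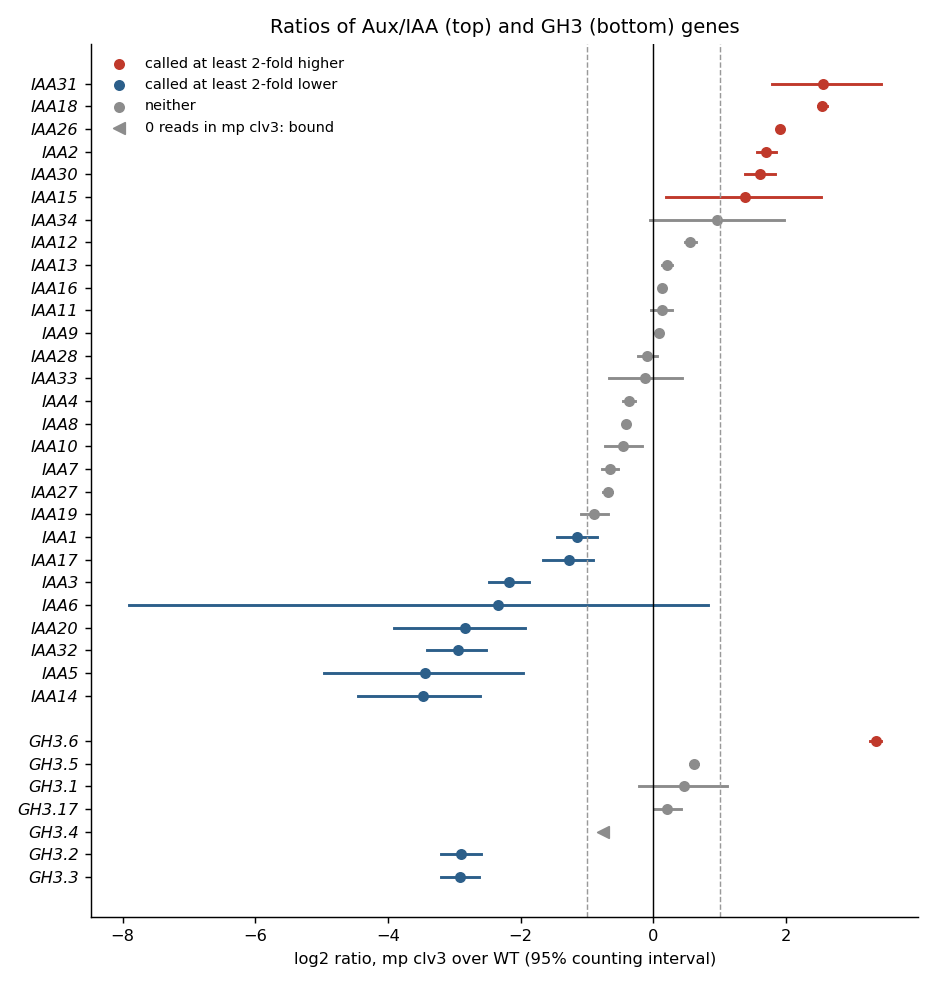
The log2 ratio of mp clv3 over WT for each member above the read floor, Aux/IAA genes at the top and GH3 genes at the bottom, with horizontal bars for the exact 95% counting interval and dashed lines at 2-fold. Red marks genes called at least 2-fold higher, blue those called lower and grey neither, and the arrowhead of GH3.4 is a bound from 0 reads. The bar of IAA6 crosses the line of no difference, whereas those of IAA18, IAA26, GH3.6, GH3.2 and GH3.3 lie wholly beyond 2-fold.

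The summed level of the Aux/IAA family was higher in mp clv3. By the main rule 6 members were called higher and 8 lower, beside 9.50% higher and 19.7% lower over all models. The counts were 5 higher and 5 lower with a pseudocount of 1 RPKM or with the whole interval beyond 2-fold. With a pseudocount of 5 RPKM they were 4 higher and 1 lower. Shares over all models were not computed for these alternatives, so the change in counts is not read as a trait of the family. The sum came to 1451 RPKM in mp clv3 against 1113 RPKM in WT, a ratio of 1.30. Without IAA18 and IAA26, the other 27 members summed to 929 RPKM in mp clv3 against 990 RPKM in WT, a ratio of 0.939, which TMM scaling turned to 1.002. The order of the abundant members also differed. IAA26 held 24.9% of the summed Aux/IAA level in mp clv3 (rank 1 of 29) and 8.64% in WT (rank 4). IAA18 held 11.1% in mp clv3 (rank 4) and 2.47% in WT (rank 8). Together, IAA18 and IAA26 held 35.9% in mp clv3 and 11.1% in WT, whereas IAA8 and IAA9 held 37.9% in mp clv3 and 54.1% in WT. These shares are descriptions of 1 column per genotype, with no error between plants.

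**Figure D3:**
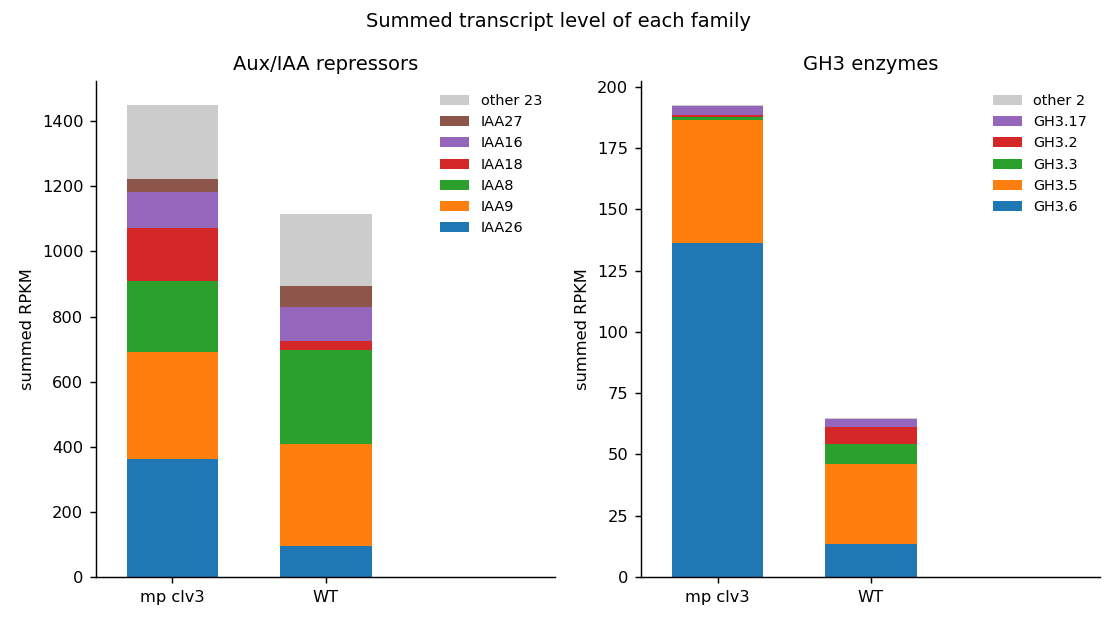
Summed RPKM of the Aux/IAA genes (left) and the GH3 genes (right) in mp clv3 and WT, with the leading members in colour and the others in grey (1 value per genotype, axes from 0). The blocks of IAA26 and IAA18 in the left panel and of GH3.6 in the right panel are larger in mp clv3, while IAA8 is smaller.

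Close relatives differed from each other to unequal extents. IAA1 and IAA2 have coding sequences identical at 79.0% of alignment positions, gaps included, and their log2 ratios differed by 2.85 (IAA2 minus IAA1, 2.51 to 3.18). Because gaps count, unequal lengths lower the identity, as for the transcripts used of IAA12 (522 bases) and IAA13 (741 bases). IAA12 has 2 annotated transcripts and IAA13 has 3, and identities with the others were not computed. IAA20 and IAA30, at 80.7% identity, differed by 4.44 (IAA30 minus IAA20, 3.496 to 5.53), and IAA3 and IAA4, at 76.1%, by -1.80 (IAA3 minus IAA4, -2.12 to -1.50). IAA14 minus IAA16, at 65.7% identity, came to -3.60 (-4.59 to -2.74), and IAA14 minus IAA7, its nearest relative at 80.2%, to -2.81 (-3.81 to -1.95). Other relatives stayed closer, with 0.49 for IAA9 minus IAA8 (0.45 to 0.53, 66.5% identity) and 0.35 for IAA12 minus IAA13 (0.24 to 0.47, 54.1% identity). IAA18 and IAA26, at 74.3% identity, were both higher and differed from each other by 0.64 (IAA18 minus IAA26, 0.56 to 0.72). IAA18 differed by 2.64 (2.48 to 2.80) from IAA28, which is placed in the same subgroup but at only 45.2% identity. The member nearest to IAA28 in coding sequence was IAA20, at 53.2%. The intervals are exact conditional ones on read pairs. No member shares a stretch of 100 bases, the read length, with a relative, and the shared stretches that exist come from the overlapping neighbours named above.

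A few members lie next to each other in the genome, as divergent pairs with no protein-coding gene between them. IAA3 and IAA17, 6388 bases apart on chromosome 1, were both called lower. IAA14 and IAA1, 10732 bases apart on chromosome 4, were both called lower as well. IAA2 and IAA7, 12510 bases apart on chromosome 3, differed in direction, with log2 ratios of 1.699 for IAA2 and -0.66 for IAA7. IAA7 was not called 2-fold. These are 3 pairs only, beside 19.7% of all models called lower, and no pattern among neighbours is read from them.

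Among the GH3 genes, a single member dominated in mp clv3. Of the 7, 1 was called at least 2-fold higher (GH3.6, AT5G54510), 2 lower (GH3.2, AT4G37390 and GH3.3, AT2G23170) and 4 neither, beside 9.50% and 19.7% of all models, and the median log2 ratio was 0.21. GH3.6 (DFL1), which conjugates auxin to amino acids and dwarfs plants when overexpressed, had 30741 reads in mp clv3 against 2977 in WT. The gene spans 22130964 to 22133688 on the minus strand of chromosome 5, with 3 exons. Its level was 136 RPKM in mp clv3 against 13.4 RPKM in WT, a ratio of 10.2 (9.65 to 10.7). GH3.5 (AT4G27260; WES1), its closest relative at 84.1% coding identity, was at 50.1 RPKM in mp clv3 (11634 reads) against 32.8 RPKM in WT (7511 reads), a ratio of 1.53 (1.47 to 1.59). The log2 ratios of these relatives differed by 2.74 (GH3.6 minus GH3.5, 2.64 to 2.83).

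GH3.2 and GH3.3, which are strongly auxin-inducible, were lower to nearly the same extent. GH3.3 had 232 reads in mp clv3 against 1722 in WT, or 1.06 RPKM in mp clv3 against 7.98 RPKM in WT, 7.53-fold lower (6.20 to 9.22). GH3.2 had 206 reads in mp clv3 against 1510 in WT, or 0.935 RPKM in mp clv3 against 6.96 RPKM in WT, 7.44-fold lower (6.05 to 9.23). The difference between their log2 ratios was -0.02 (GH3.3 minus GH3.2), with an interval of -0.44 to 0.41. GH3.4 (AT1G59500), at 90.0% coding identity to GH3.2, had 0 reads in mp clv3 against 10 in WT. With 0 taken as the floor of 6 reads it was 1.69-fold lower, and so was not called. The exact interval of its ratio reached 1.08 and thus spans no difference. GH3.17 (AT1G28130), which prefers glutamate, had 841 reads in mp clv3 against 718 in WT (3.77 RPKM in mp clv3, 3.26 RPKM in WT), a ratio of 1.15 (1.002 to 1.33). GH3.1 (AT2G14960) had 96 reads in mp clv3 against 69 in WT, a ratio of 1.37 (0.856 to 2.15), with an FDR of 0.0509 in the authors' deposited table.

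The summed GH3 level was 193 RPKM in mp clv3 against 64.8 RPKM in WT, a ratio of 2.97, and the ratio was 1.10 without GH3.6 (56.3 RPKM in mp clv3 against 51.4 RPKM in WT). GH3.6 held 70.8% of the sum in mp clv3 and 20.7% in WT, and GH3.5 held 26.01% in mp clv3 and 50.7% in WT. GH3.2 and GH3.3 together held 1.04% in mp clv3 and 23.0% in WT. The family was thus led by GH3.6 in mp clv3 and by GH3.5 in WT.

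The auxin response element was searched upstream of every gene. TGTCTC stood on either strand within 300 bases before the start of 11 of 29 Aux/IAA genes (37.9%) and of 3 of 7 GH3 genes (42.9%), beside 3558 of 27443 protein-coding genes (13%). The variant TGTCGG stood in 6 of 29 Aux/IAA genes (20.7%) and in 0 of 7 GH3 genes, beside 4.91% of all. The motifs differ in their last letters, so no site counts as both. Family members share ancestry and often sequence, and these are counts of letters, not of bound sites. In the upstream regions of IAA9, IAA10, IAA32 and IAA34 part of the sequence belongs to another annotated gene.

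By call, and with no test, TGTCTC was found upstream of 6 of the 8 Aux/IAA genes called lower (all but IAA14 and IAA17, and with IAA6, whose exact test gave 0.285), of 1 of the 6 called higher (IAA30) and of 4 of the 15 called neither. Among the GH3 genes it was found upstream of both called lower, not of the 1 called higher, and of 1 of the 4 called neither. Over all models with an upstream region, 12.8% of those called higher, 12.8% of those called lower and 13% of the others held it. IAA20 and IAA30 both hold the letters and differed in direction, IAA20 being 7.15-fold lower and IAA30 3.04-fold higher. In their upstream regions IAA6 and IAA19 share an unbroken run of 23 bases with the element, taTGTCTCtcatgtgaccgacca, and both had fewer reads in mp clv3. GH3.5 and GH3.6 share a run of 14 bases at -125 in both genes, cacgaatagtaagc, which holds no element. GH3.5 holds its element elsewhere, at -47, where GH3.6 has none.

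**Figure D4:**
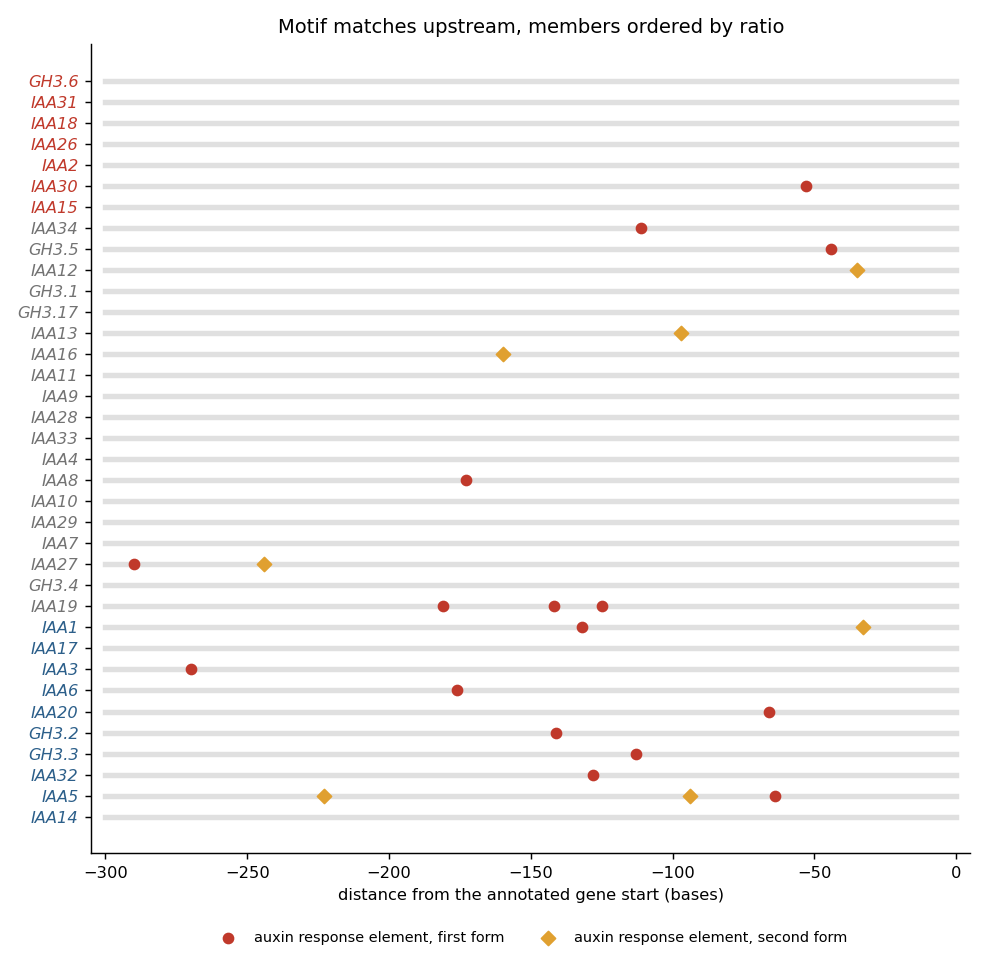
Positions of TGTCTC (red circles, first form) and TGTCGG (orange diamonds, second form) on either strand in the 300 bases before each gene start, with members ordered from the highest ratio at the top to the lowest at the bottom. Gene names are red where called at least 2-fold higher, blue where called lower and grey otherwise, and a red circle stands in 6 of the 8 blue Aux/IAA genes and in both blue GH3 genes.

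The partners of the Aux/IAA proteins listed here, with only activating ARFs among the ARFs, stayed within 2-fold apart from MP and ARF19. MP is itself mutated in mp clv3, and the other ARF genes were not examined. None of the 6 TIR1/AFB receptor genes and none of the 5 TOPLESS-type co-repressor genes was called 2-fold. Over all models, 29.2% were called 2-fold in either direction, so lists this short do not set these genes apart. The FDR alone in the authors' deposited table called 5 receptor genes higher and 1 lower, and 4 co-repressor genes higher and 1 lower, beside 31.3% and 43.5% of all models. TIR1 was the receptor gene with the largest ratio, at 110 RPKM in mp clv3 against 60.7 RPKM in WT (1.82, 1.77 to 1.87). Of the 5 activating ARF genes, 1 was called higher and 1 lower, beside 9.50% and 19.7% of all models. MP was 3.18-fold lower (3.04 to 3.32). ARF19, which acts with ARF7 in lateral root formation, was called higher at 18.2 RPKM in mp clv3 against 7.51 RPKM in WT (2.42, 2.28 to 2.57). The annotated MP locus shares 23 bases with an antisense neighbour.

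Genes for other enzymes, not all of which act on auxin, were looked at alongside the GH3 genes. Of 7 amide hydrolase genes, which release auxin or jasmonate from conjugates, 2 were called higher and none lower, beside 9.50% and 19.7% of all models. IAR3 was at 73.1 RPKM in mp clv3 against 22.5 RPKM in WT (3.25, 3.09 to 3.42), and ILL6 was at 30.3 RPKM in mp clv3 against 8.80 RPKM in WT (3.44, 3.19 to 3.71). Of 2 neighbouring genes annotated as 2-oxoglutarate and Fe(II)-dependent oxygenases, AT1G14120 was called higher on 70 reads in mp clv3 against 24 in WT, and AT1G14130 fell just short, at 15.7 RPKM in mp clv3 against 7.86 RPKM in WT (2.00, 1.80 to 2.21). Of 6 other GH3 genes listed, 2 were called lower and none higher, beside 19.7% and 9.50% of all models. GH3.10 (DFL2) was 2.39-fold lower at 7.34 RPKM in mp clv3 against 17.5 RPKM in WT, and GH3.9 was 2.05-fold lower at 2.09 RPKM in mp clv3 against 4.28 RPKM in WT. JAR1, which makes the active jasmonate conjugate, was at 31.9 RPKM in mp clv3 against 16.9 RPKM in WT (1.89, 1.78 to 2.00), short of the rule.

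**Figure D5:**
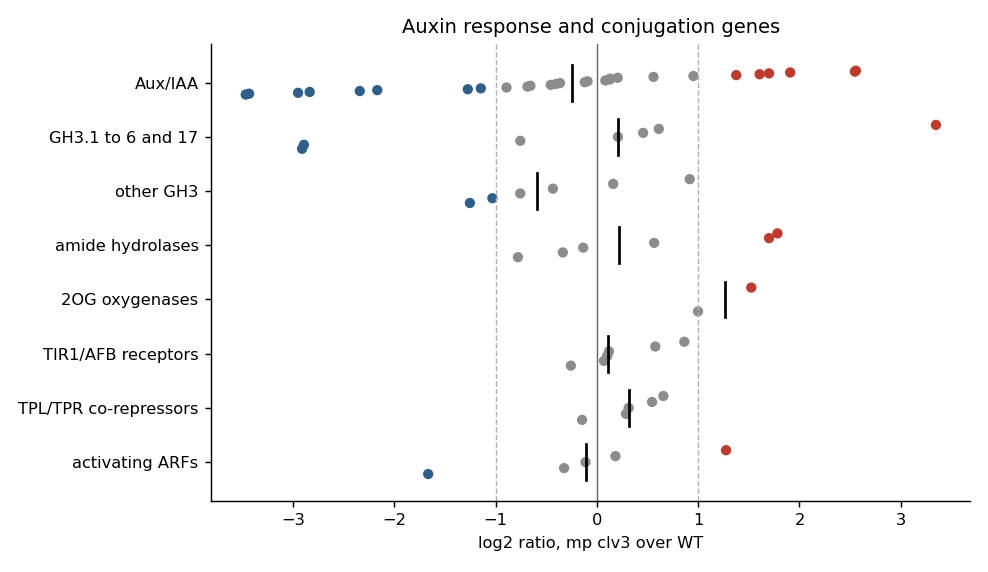
The log2 ratio of mp clv3 over WT for each gene above the read floor in 8 auxin-related lists, with 1 point per gene, a black bar at each list's median and dashed lines at 2-fold. Red points were called at least 2-fold higher and blue points lower, and genes with 0 reads in mp clv3 are drawn at their bound. The receptor and co-repressor points lie between the dashed lines, while the Aux/IAA points reach from -3.47 to 2.56.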

How the data were processed

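Per the labels' protocols, poly(A) RNA was sequenced as pairs of 100 bases from libraries described as strand-specific. CASAVA 1.7, BWA and TAIR10 are named, without roles, in the submitters' processing notes, and the use of strand in counting is not given in the sources used. Read numbers deposited by the authors were handled as estimated counts, with 0.5 set back to 0. The RPKM values deposited by the authors scale these by model length and column total. The log2 ratio in the authors' deposited table is that of the RPKM columns, and its FDR, an adjusted p-value, has no stated test behind it. Of 27323 models, 1 with shifted cells was left out.

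Ratios used reads over column totals, with 0 reads taken as the floor of 6 reads (3 pairs). Exact (Clopper-Pearson) 95% intervals used pairs, since models with 2 reads outnumbered those with 1 or 3 (717 against 99 and 88 in mp clv3). Intervals and the floor cover counting error only. Scripts, checked on simulated data, used Python 3.11.15, scipy 1.17.1 and edgeR 4.0.16 (R 4.3.3) for TMM scaling. With 1 column per genotype no model over replicates was fitted. Coordinates, coding sequences (of the first-numbered transcript where annotated) and upstream sequences came from RefSeq's TAIR10.1. Identity and the degron were taken from coding sequence, since no protein table was used here, and the EAR motif was not examined. The upstream sequence of 1 member is not reported here.

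Values were given for members called at least 2-fold or at 10 RPKM or more in either genotype, for other members by reads or range, and for at most 3 called genes of 1 RPKM or more per other list. TIR1, JAR1, AT1G14120 and AT1G14130 fall outside that rule and were named after their values were seen. The members and lists were chosen with earlier results of these data known. Alternatives tried were TMM scaling, pseudocounts of 1 and 5 RPKM, a minimum of 1 RPKM, an exact binomial test, a 1.5-fold threshold and the whole interval beyond 2-fold.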

Additional observations from a re-analysis of the deposited data

How the results depend on the processing

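The count of Aux/IAA genes called lower was 8 and came to 5 with a pseudocount of 1 RPKM, to 1 with a pseudocount of 5 RPKM, which understates the change of low genes, and to 5 where the whole counting interval had to lie beyond 2-fold. The count of GH3 genes called higher was 1 and came to 2 at a 1.5-fold threshold, and GH3 genes called lower were 2, or 3 at that threshold and 3 with the ratio as the authors' deposited table gives it, both of which add GH3.4. TMM scaling, which raised every log2 ratio by 0.093, moved the log2 ratio of the summed RPKM from 0.38 to 0.48 for Aux/IAA genes and from 1.57 to 1.67 for GH3 genes, a setting chosen after seeing the data. Under TMM the ratio of IAA28 changed sign to 0.00048 and IAA34 passed 2-fold. The other counts of calls stayed within 1.5 times under the alternatives run, and both medians kept their sign. Without IAA18 and IAA26 the log2 ratio of the Aux/IAA sum was -0.09, and 0.0025 under TMM. No paired analysis was possible because the table has 1 column per genotype, and leaving out a replicate was not run for the same reason. Transcripts of fewer than 100 reads limit the calls of IAA5, IAA6 and IAA15.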
